A study of Homo sapiens with 18 samples.

Results

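The genes described here are 37 human genes of the lysosome and of autophagy, taken by symbol through the Entrez gene identifiers of the deposited tables. All 37 were found among the 25343 genes listed, and all 37 passed the filter on low counts that left 14074 genes for testing. They comprise 16 genes for hydrolases or the proteins that assist them, 5 for lysosomal membrane proteins, 5 for subunits of the proton pump, 3 for transcription factors of the pathway or a regulator of these, and 8 for autophagy. They were read by RNA-seq in 18 xenograft tumours of HCT116, a long-established line from a human colon carcinoma. The cells carried a knockout of PTDSS2, so every group shared that deletion. PTDSS2 and PTDSS1 encode the enzymes that make phosphatidylserine, and the series title concerns an inhibitor of PTDSS1. Mice were dosed by mouth with vehicle or with the compound DS55980254 at 10 or 30 mg/kg, each in 0.5% methylcellulose, and 6 tumours per group were taken after 24 hours. A single line in mouse hosts limits these tumours as a model. Whether tumours came from separate mice is not stated in the labels, and p-values therefore reflect only how much these samples vary.

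Lysosomes are acidic organelles in which hydrolases break down proteins, glycans and lipids that arrive by endocytosis or by autophagy, the process that wraps cytoplasm in a membrane and delivers it to them. A proton pump in the lysosomal membrane, the V-ATPase, keeps the interior acidic, and heavily glycosylated membrane proteins line it. The transcription factors TFEB and TFE3 bind the promoters of many of these genes, and their activity is set largely by their location in the cell, which RNA levels do not show.

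Promoter sequence is shown first because the binding element of TFEB and TFE3 is short and can be read directly. RefSeq windows (GRCh38.p14), from 250 bases before to 50 bases after each gene start, were at hand for 27 of the 37 genes. The word TCACGTGA, the core of that element, was searched on both strands and stood in the windows of 4 of the 27 genes (14.8%), against 2.14% of the tested genes and 1.18% of all genes with such a window. These were LAMP1, ATP6V0D1, MCOLN1 and CTSA. The shorter word CACGTG, which lies within the longer one, stood in 8 of the 27 (29.6%) against 12.4% of the tested genes and 8.78% of all genes with a window, with CD63, CTSD, FNIP1 and NEU1 in addition. The word TCACNCCAC, of the kind bound by the sterol-sensing SREBP factors, stood in 1 of the 27 windows (3.70%, TFEB) against 1.41% of the tested genes and 1.39% of all. The lines below give 30 bases around each TCACGTGA, with the word in capitals. For NEU1, the gene with the largest both-dose change, the line gives the 250 bases before its start, with CACGTG in capitals. Each runs 5′ to 3′ on the strand of the gene.
LAMP1 chr13:113297199-113297228, plus strand: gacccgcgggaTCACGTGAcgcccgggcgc
LAMP1 chr13:113297226-113297255, plus strand: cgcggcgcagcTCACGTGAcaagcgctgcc
ATP6V0D1 chr16:67481199-67481228, minus strand: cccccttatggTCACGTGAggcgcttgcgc
MCOLN1 chr19:7522571-7522600, plus strand: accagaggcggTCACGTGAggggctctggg
MCOLN1 chr19:7522598-7522627, plus strand: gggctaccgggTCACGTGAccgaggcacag
CTSA chr20:45891298-45891327, plus strand: ggcgccggagtTCACGTGActcgtacacat
NEU1 chr6:31862822-31863071, minus strand: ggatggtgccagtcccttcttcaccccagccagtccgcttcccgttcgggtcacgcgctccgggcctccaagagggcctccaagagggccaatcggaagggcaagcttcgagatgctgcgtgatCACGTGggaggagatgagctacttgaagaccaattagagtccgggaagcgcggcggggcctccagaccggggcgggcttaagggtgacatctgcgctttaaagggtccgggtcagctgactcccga
LAMP1 and MCOLN1 each held the longer word at 2 places. In NEU1 the shorter word began 126 bases before the start. A match is a string of letters and was not tested as a binding site. The 37 were picked as genes of this pathway, so their shares describe the list and do not test it.

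Across the libraries, human counts totalled 3435435 to 8538793 in 17 libraries and 433989 in 10 mg/kg replicate 2. That library also correlated least with the rest, at a mean of 0.725 against 0.942 to 0.954 for the other 17. In CPM (counts scaled to library size by TMM), the vehicle, 10 mg/kg and 30 mg/kg groups held 76.8 ± 4.94, 64.7 ± 5.45 and 67.9 ± 4.54 of PTDSS1 (SD, n = 6). PTDSS2 stood at 8.75 ± 2.30, 9.42 ± 2.32 and 7.92 ± 3.36 CPM, and whether these reads cover the knocked-out part is not known. Of the epithelial markers, EPCAM and keratin 8 averaged 348.9 and 2751 CPM with vehicle. The intestinal markers CDH17 and VIL1 reached at most 1.45 and 1.74 CPM outside 10 mg/kg replicate 2. How far these levels fit the labelled line was not tested. Macrophages are rich in lysosomes, and 12 human macrophage and leukocyte markers, of which 3 passed the filter, summed to 11.5 to 18.3 CPM with vehicle and 12.1 to 21.4 CPM at 30 mg/kg. The 10 mg/kg libraries gave 14.5 to 25.5 CPM without replicate 2 and 141.2 CPM in replicate 2. That library stood apart for the other marker lists too, at 316.6 CPM for fibroblast and 85.6 CPM for endothelial markers (61.9 to 108.9 and 3.45 to 18.2 CPM in the other 17 libraries) and 3961 CPM for epithelial markers (5037 to 7245). In it 1 count equals 2.14 CPM, so markers near 0 elsewhere rest on few counts there. CDH17 and VIL1, epithelial markers near 0 in the other libraries, were also higher in it, at 15.0 and 4.28 CPM. Of the macrophage and leukocyte markers, C1QA, C1QB and C1QC were at 0 in every vehicle library. The 3 that passed the filter, CD68, LYZ and CSF1R, averaged 7.04, 4.56 and 1.71 CPM with vehicle. The part of other cells in the results was not tested.

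For the genes described here, 10 mg/kg replicate 2 rests on 1 to 229 counts per gene (median 17). It was the lowest library of its group for 22 of the 37 genes and the highest for 8, against 42.4% and 36.7% of all genes tested. Its median distance from the vehicle mean over the 37 genes was 0.54 on the log2 scale, and the next highest of any library was 0.28. Results are therefore given with and without it.

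Per transcript length, the genes spanned 3.45 to 353.3 TPM with vehicle (transcript abundance scaled for length, as deposited), with a median of 30.2. The most abundant were CD63, a tetraspanin of late endosomes and lysosomes, at 353.3 ± 33.5 TPM, and PSAP, the precursor of the saposins that help lipid hydrolases, at 318.8 ± 16.5 TPM. SQSTM1, the autophagy receptor p62, followed at 157.4 ± 8.94 TPM, and CTSD, the aspartic protease cathepsin D, at 147.8 ± 6.03 TPM. The lowest were TFEB at 3.45 ± 1.13 TPM and SMPD1, acid sphingomyelinase, at 5.29 ± 1.73 TPM (SD, n = 6). The related factor TFE3 was more abundant than TFEB, at 20.7 ± 2.14 TPM. Between vehicle libraries the coefficient of variation of a gene ran from 3.90% (GUSB) to 36% (SMPD1), with a median of 11.6%, and the median was 13.4% for the 12869 tested genes at least as abundant as the lowest of the 37.

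**Figure D1:**
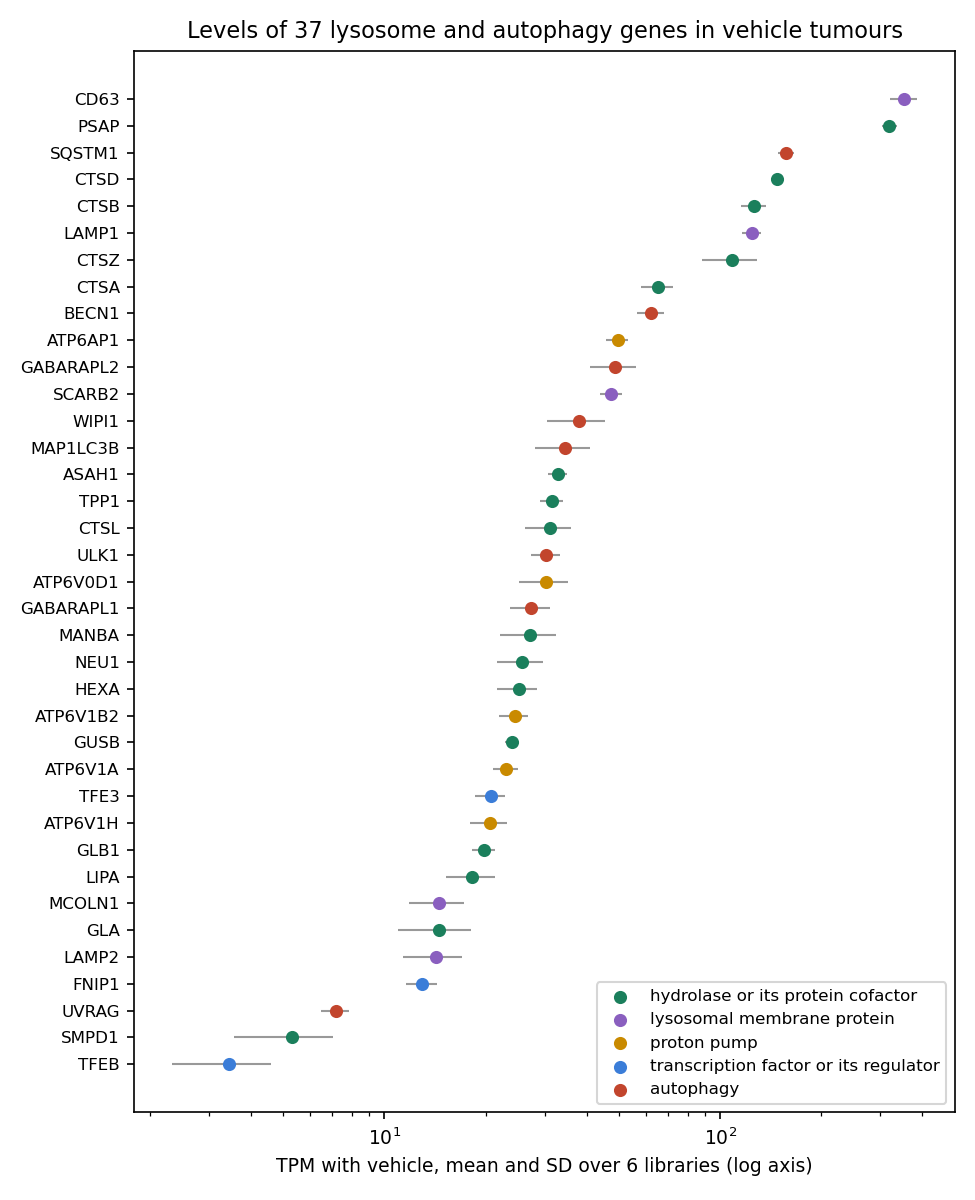
Mean TPM with vehicle (log axis) of the 37 genes, coloured by role, with the SD over 6 libraries as a line. CD63 and PSAP lie highest, at 353.3 and 318.8 TPM, and TFEB lowest, at 3.45 TPM.

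Summed over all 37 genes, the libraries held 2114 to 2256 TPM with vehicle (median 2149) and 2255 to 2550 TPM at 30 mg/kg (median 2409). At 10 mg/kg the sum was 2344 to 2593 TPM in 5 libraries and 1371 TPM in replicate 2. The vehicle and 30 mg/kg ranges overlapped at their ends, and the 5 other libraries at 10 mg/kg lay above all vehicle libraries. The 8 autophagy genes alone summed to 390.7 to 423.4 TPM with vehicle, 447.9 to 513.9 TPM at 30 mg/kg and 477.8 to 521.3 TPM in the 5 libraries, with 238.6 TPM in replicate 2. SQSTM1 held most of that difference, with means of 157.4 TPM with vehicle and 204.2 TPM at 30 mg/kg out of role sums of 405.5 and 471.5 TPM. The other roles overlapped between vehicle and 30 mg/kg. The hydrolases summed to 970 to 1091 and 1020 to 1150 TPM, the membrane proteins to 507.6 to 591.9 and 557.7 to 696.5 TPM. The pump genes summed to 139.8 to 154.8 and 144.1 to 171.7 TPM, and the transcription factor group to 34.6 to 41.5 and 29.5 to 44.7 TPM. In bulk tumours, fewer cells of a type and less RNA per cell cannot be told apart.

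The first comparison asked which of these transcripts differed a day after 10 mg/kg. NEU1, the lysosomal sialidase that removes sialic acid from glycans, was the 1 of 37 genes that passed (edgeR's quasi-likelihood test, Benjamini-Hochberg adjusted p under 0.05), and it rose. Over all genes tested, 0.469% passed in either direction and 0.419% were higher. At an unadjusted p under 0.05, 8 of the 37 passed and all 8 were higher, against 5.42% of all genes higher and 9.5% in either direction. They were NEU1, LIPA and GLB1 among the hydrolases, SCARB2, the pump protein ATP6AP1, TFE3, SQSTM1 and WIPI1. The log2 fold change was above 0 for 29 of the 37, against 48.8% of all genes, and its median was 0.11 against -0.01 over all genes. The 37 genes were chosen with earlier results of these data known. Here and in the comparisons below, their shares beside those of all genes are therefore not independent evidence. Without replicate 2, NEU1 and SQSTM1 passed (2 of 37, against 0.855% of all genes tested).

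At 30 mg/kg, 0 of the 37 genes passed with edgeR, against 0.618% of all genes. With an unadjusted p under 0.05 there were 9, all higher, against 4.18% of all genes higher and 7.9% in either direction. They were NEU1, LIPA, GLB1, LAMP2, SCARB2, ATP6AP1, TFE3, SQSTM1 and MAP1LC3B. DESeq2 called 3 of the 37 at this dose, NEU1, SQSTM1 and LIPA, and limma on log2(TPM + 1) called 0. Over all genes DESeq2 called 179 at this dose, where edgeR called 87. The log2 fold change was again above 0 for 29 of 37, against 49.8% of all genes, with a median of 0.12 against 0.00. Without 10 mg/kg replicate 2, LIPA and SQSTM1 passed (2 of 37, against 1.29% of all genes). Both dose comparisons use the same vehicle libraries, so they are not independent of each other.

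Taking the mean of both doses against vehicle, 2 of the 37 genes passed, NEU1 and SQSTM1, both higher, against 0.931% of all genes in either direction and 0.746% higher. At an unadjusted p under 0.05 there were 8, all higher, against 5.24% of all genes higher and 9.85% in either direction. The count without 10 mg/kg replicate 2 was 4 of 37 (NEU1, SQSTM1, LIPA and ATP6AP1), against 1.97% of all genes. No gene of the 37 was lower at an unadjusted p under 0.05 in any of these comparisons, where 4.08% (10 mg/kg), 3.72% (30 mg/kg) and 4.6% (both doses) of all genes were. Without that library it was again 0 of 37, against 4.49%, 5.27% and 6.03% of all genes. As the 37 were chosen with earlier results known, these counts describe the list and do not test it. The log2 fold change was above 0 for 27 of the 37, against 49% of all genes, and its median was 0.12 against 0.00. Its 95% interval lay within 1.5-fold either way for 31 of the 37, against 71.4% of all genes, which were not matched for abundance. By role the medians were 0.12 for the hydrolases, 0.22 for the membrane proteins, 0.05 for the pump, 0.28 for the transcription factor group and 0.16 for autophagy.

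Between the doses, 30 against 10 mg/kg, 0 of the 37 genes passed with edgeR, as did 0% of all genes tested. None had an unadjusted p under 0.05, against 3.52% of all genes, and DESeq2 and limma on log2(TPM + 1) called 0 as well. For 35 of the 37 genes the 95% interval of the ratio between the doses lay within 1.5-fold either way, against 64.7% of all genes, which were not matched for abundance. The exceptions were SMPD1 and TFEB, the lowest in TPM, with intervals of 0.634 to 1.31 and 0.539 to 1.41.

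**Figure D2:**
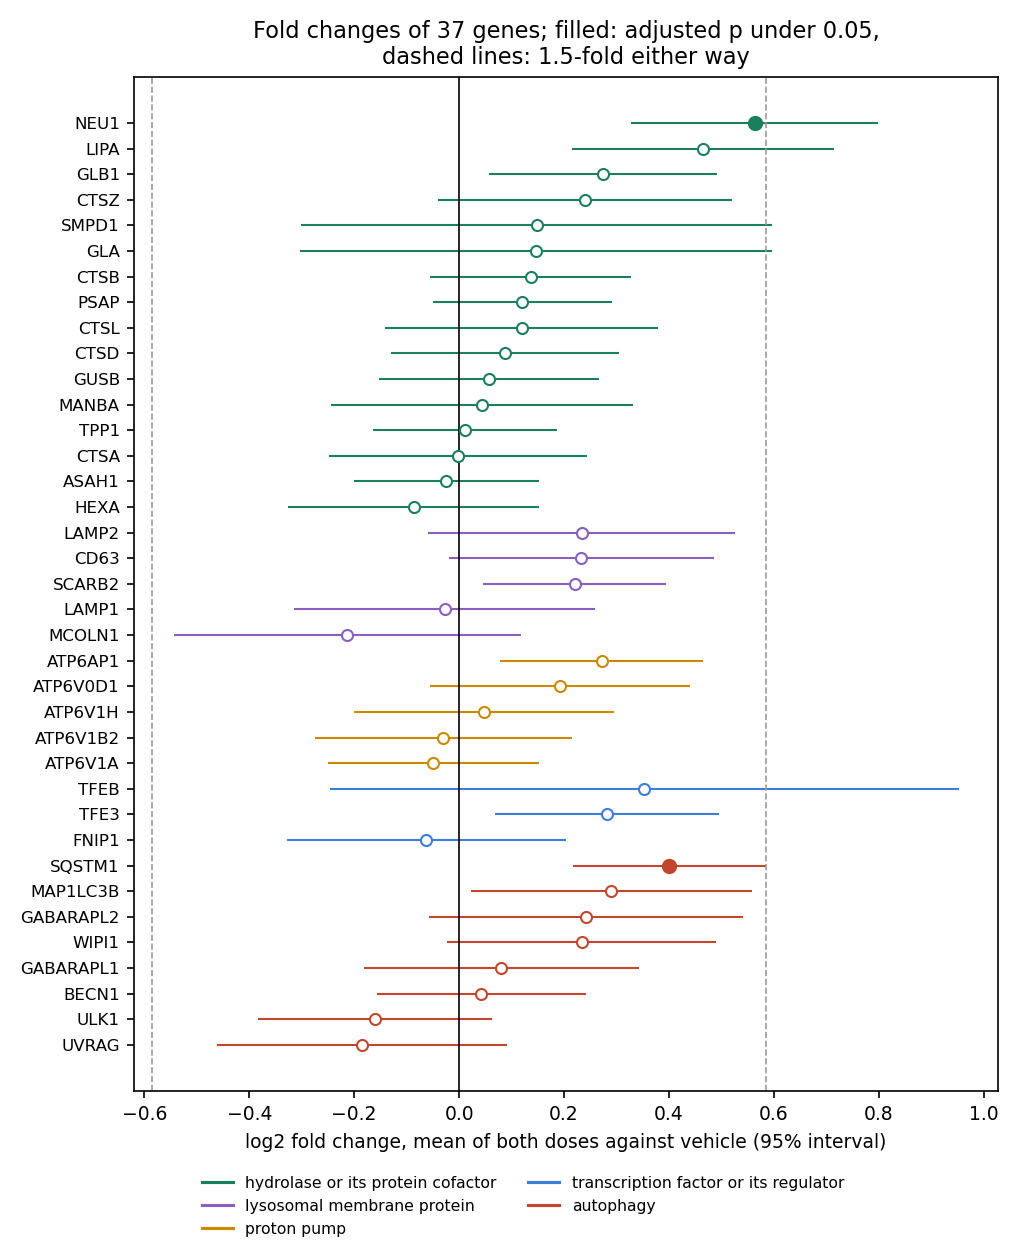
Log2 fold change of each gene for the mean of both doses against vehicle, with its 95% interval, ordered by role; filled points passed at adjusted p under 0.05. NEU1 and SQSTM1 are filled at 0.56 and 0.40, and the intervals of 31 of the 37 genes lie between the dashed lines at 1.5-fold.

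Among the hydrolases, NEU1 (Entrez 4758) stood at 20.7 to 34.1 CPM with vehicle (median 26.2, mean 26.2 ± 4.84). At 10 mg/kg it stood at 34.5 to 49.2 CPM (median 43.6, mean 42.2 ± 5.51), and the 30 mg/kg libraries gave 29.2 to 40.2 CPM (median 36.7, mean 36.1 ± 4.03; SD, n = 6). Every library at 10 mg/kg lay above every vehicle library, the closest pair being 34.5 and 34.1 CPM, and 0.689% of all genes showed that separation. The libraries at 30 mg/kg overlapped the vehicle range through 1 of 6, replicate 2. NEU1 rose 1.58-fold at 10 mg/kg (95% interval 1.31 to 1.91, edgeR adjusted p = 0.0160) and 1.48-fold over both doses (1.26 to 1.74, adjusted p = 0.0103), while the ratio of 1.38 at 30 mg/kg (1.149 to 1.66) had an adjusted p of 0.128. The 30 to 10 mg/kg ratio of 0.873 (0.725 to 1.05) did not pass (adjusted p = 0.969). The highest library at 10 mg/kg was the shallow replicate 2, with 23 counts, and without it the ratio was 1.56 (adjusted p = 0.0105). The call at 10 mg/kg ended when vehicle replicate 2, 4 or 5 was left out (adjusted p up to 0.0543), and the both-dose call when vehicle replicate 2 or 4 was (up to 0.0510). The 10 mg/kg call also ended with no filter on low counts (adjusted p = 0.0674), with limma on log2(TPM + 1) (adjusted p = 0.109) and with the replicate number as a block (adjusted p = 0.0802), and the both-dose call with limma (adjusted p = 0.0572).

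LIPA (Entrez 3988), lysosomal acid lipase, which frees cholesterol and fatty acids from lipoprotein lipids, was second among the hydrolases over both doses. At 30 mg/kg its ratio was the highest of them. It stood at 20.1 to 28.2 CPM with vehicle (median 23.3, mean 24.0 ± 3.49), 17.1 to 39.0 CPM at 10 mg/kg (median 33.1, mean 31.1 ± 7.94) and 28.2 to 36.98 CPM at 30 mg/kg (median 34.6, mean 33.5 ± 3.70). All 30 mg/kg libraries lay above all vehicle libraries, narrowly, as 1.25% of all genes did. At 10 mg/kg the lowest library was replicate 2, with 8 counts. With all libraries LIPA did not pass at 10 mg/kg (1.36-fold, adjusted p = 0.241), at 30 mg/kg (1.40-fold, adjusted p = 0.149) or over both doses (1.38-fold, 95% interval 1.16 to 1.64, adjusted p = 0.0711). Without 10 mg/kg replicate 2 it passed at 30 mg/kg (adjusted p = 0.0403) and over both doses (1.41-fold, adjusted p = 0.0112) but not at 10 mg/kg (adjusted p = 0.0547).

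GLB1, the lysosomal beta-galactosidase, averaged 25.1 ± 2.29, 30.4 ± 2.19 and 30.3 ± 5.03 CPM with vehicle, 10 and 30 mg/kg. Its ratio over both doses was 1.21 (1.04 to 1.41, adjusted p = 0.331). CTSA, which protects NEU1 and GLB1 in a complex, averaged 72.0 ± 7.55, 67.5 ± 21.7 and 72.3 ± 6.85 CPM, a ratio of 0.998 (0.842 to 1.18). Of the 3 partners NEU1 alone passed, and the differences between them were not tested.

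The other proteases gave ratios over both doses of 1.18 for CTSZ, 1.10 for CTSB, 1.09 for CTSL, 1.06 for CTSD and 1.01 for TPP1, the peptidase lost in a childhood neuronal storage disease. None passed, and each interval lay within 1.5-fold. CTSD, often used as a lysosomal reference, stood at 154.4 ± 10.4, 160.3 ± 37.6 and 164.8 ± 16.4 CPM, with an interval of 0.914 to 1.24. Among the enzymes of glycan breakdown, the ratios were 1.11 for GLA (alpha-galactosidase A), 1.04 for GUSB (beta-glucuronidase), 1.03 for MANBA (beta-mannosidase) and 0.942 for HEXA (a subunit of beta-hexosaminidase). The sphingolipid group held SMPD1 at 1.11, PSAP at 1.09 and ASAH1, acid ceramidase, at 0.983. Of these, GLA and SMPD1 were too variable to be placed within 1.5-fold, with upper bounds of 1.51 each.

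**Figure D3:**
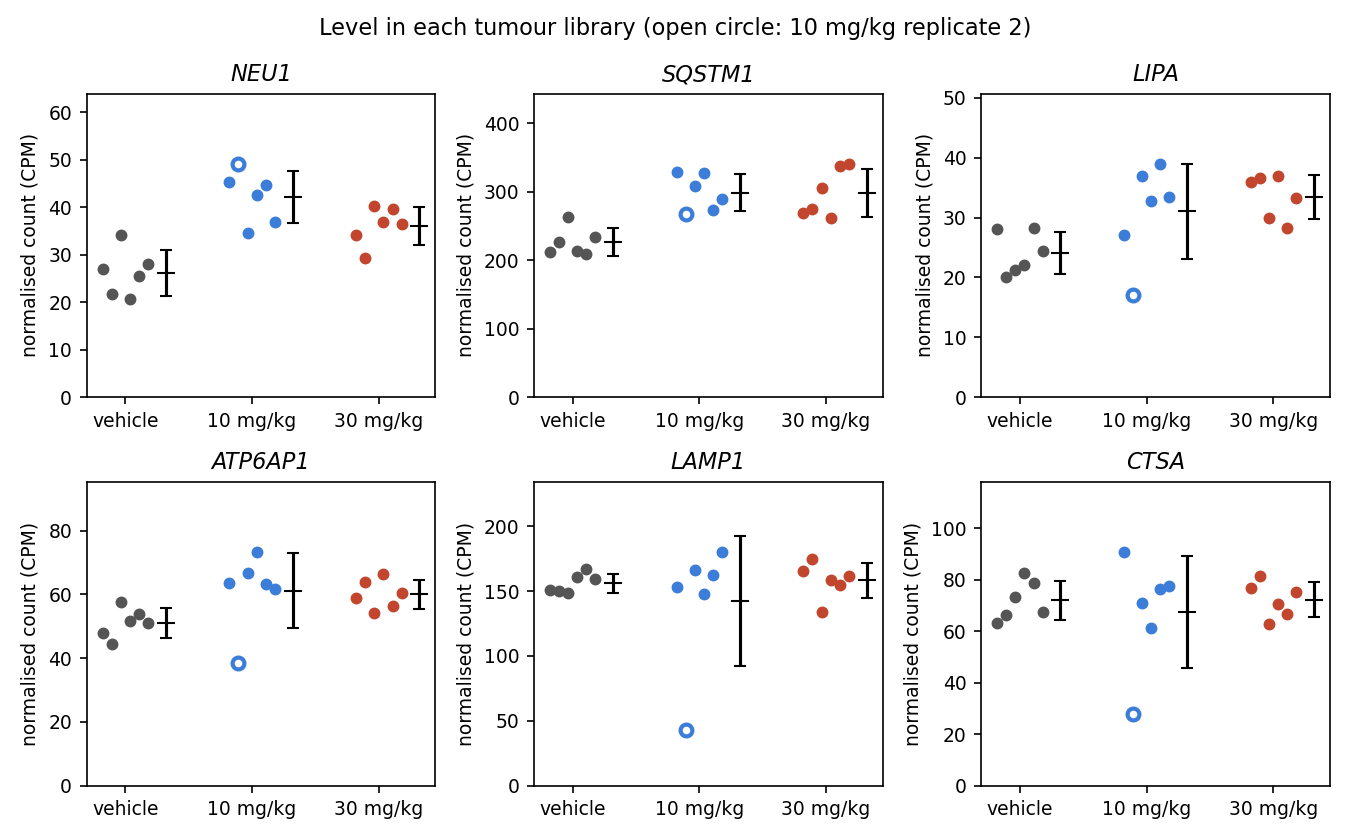
Normalised counts (CPM) of 6 of the genes in each of 18 libraries by group, with the mean and SD beside them; the open circle is 10 mg/kg replicate 2. For NEU1 and SQSTM1 all 10 mg/kg points lie above all vehicle points, while LAMP1 and CTSA overlap in all groups and have their lowest point in that replicate, at 42.8 and 27.8 CPM.

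Of the 5 membrane proteins, none passed in any comparison. SCARB2, the receptor that carries glucocerebrosidase to lysosomes, averaged 113.1 ± 10.6, 133.9 ± 18.2 and 131.9 ± 9.64 CPM in the vehicle, 10 mg/kg and 30 mg/kg groups, a ratio of 1.16 over both doses (1.03 to 1.31, adjusted p = 0.326). CD63 averaged 143.6 ± 16.6, 172.0 ± 44.5 and 169.9 ± 28.6 CPM (ratio 1.18, adjusted p = 0.565), its 10 mg/kg mean including 248.1 CPM in replicate 2. For LAMP2, whose product serves chaperone-mediated autophagy, the means were 32.6 ± 5.77, 33.1 ± 10.2 and 41.8 ± 8.36 CPM, and the 30 mg/kg ratio was 1.28 (1.02 to 1.61, adjusted p = 0.571). LAMP1, its abundant relative, ranged from 148.9 to 167.2 CPM with vehicle and 133.9 to 174.7 CPM at 30 mg/kg. At 10 mg/kg it was 42.8 CPM in replicate 2 and 147.6 to 180.1 CPM in the others, and the both-dose ratio moved from 0.982 (0.804 to 1.197) to 1.03 without that library. MCOLN1, a calcium-permeable channel of the lysosome, had a ratio of 0.863 (0.686 to 1.08) and rested on 1 count in replicate 2.

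For the proton pump, ATP6AP1, an accessory subunit that helps assemble it, gave the highest ratio. It stood at 44.3 to 57.6 CPM with vehicle (median 51.3), 38.5 to 73.2 CPM at 10 mg/kg (median 63.4) and 54.3 to 66.5 CPM at 30 mg/kg (median 59.5). The 5 libraries at 10 mg/kg other than replicate 2 all lay above the vehicle libraries, as did those of SQSTM1, NEU1, GLB1 and WIPI1 (5 of 37, against 1.31% of all genes). Over both doses ATP6AP1 was 1.21-fold (1.06 to 1.38, adjusted p = 0.241), and it passed without that replicate (1.23-fold, adjusted p = 0.0462). ATP6V0D1, of the membrane sector, had a ratio of 1.14 (0.963 to 1.36), and the catalytic-sector subunits had ratios of 1.03 (ATP6V1H), 0.980 (ATP6V1B2) and 0.966 (ATP6V1A, 0.840 to 1.11). None of these 4 passed.

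In the transcription factor group, TFE3 averaged 35.5 ± 4.08, 44.6 ± 4.60 and 42.3 ± 6.68 CPM with vehicle, 10 and 30 mg/kg, a both-dose ratio of 1.21 (1.05 to 1.41) that did not pass (adjusted p = 0.302). TFEB averaged 3.72 ± 1.28, 5.57 ± 2.41 and 4.48 ± 1.75 CPM. Its ratio of 1.28 had an interval of 0.843 to 1.94, which holds both no change and a 1.5-fold higher level, so smaller changes in its RNA were not detectable at this depth. FNIP1, which with folliculin controls the release of these factors from the lysosome, had a ratio of 0.958 (0.797 to 1.151), with 17.1 CPM in 10 mg/kg replicate 2 against 41.1 to 48.4 CPM in the rest of that group.

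Within the autophagy genes, SQSTM1 (Entrez 8878), whose protein ties ubiquitin-tagged cargo to the growing autophagosome and is itself degraded there, stood at 209.6 to 263.1 CPM with vehicle (median 220.4, mean 226.7 ± 20.3). It stood at 267.4 to 328.7 CPM at 10 mg/kg (median 298.8, mean 299.1 ± 26.6) and 261.7 to 341.4 CPM at 30 mg/kg (median 290.9, mean 298.7 ± 35.2). All 6 libraries at 10 mg/kg exceeded all vehicle libraries, as for NEU1 (2 of 37, against 0.689% of all genes). At 30 mg/kg, replicate 4 alone fell below the highest vehicle library, at 261.7 against 263.1 CPM. SQSTM1 rose 1.32-fold over both doses (95% interval 1.16 to 1.5, edgeR adjusted p = 0.0233). The single-dose ratios were alike, 1.32 at each dose (adjusted p = 0.0890 and 0.0762), and did not pass with all libraries. Leaving out 10 mg/kg replicate 2 brought both past the threshold (adjusted p = 0.0130 and 0.0147) and gave 0.00249 over both doses. The both-dose call ended when vehicle replicate 1, 2, 4, 5 or 6, or 30 mg/kg replicate 6, was left out (adjusted p up to 0.0897), and also with no filter on low counts (adjusted p = 0.268), with limma on log2(TPM + 1) (adjusted p = 0.485) and with the replicate block (adjusted p = 0.0887).

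MAP1LC3B, one of the LC3 proteins that are coupled to lipid on autophagosome membranes, averaged 38.9 ± 6.79, 41.3 ± 12.3 and 51.8 ± 7.89 CPM. Its ratio was 1.33 at 30 mg/kg (1.08 to 1.64, adjusted p = 0.365) and 1.22 over both doses (adjusted p = 0.461), and 10 mg/kg replicate 2 held 9 counts. Reads of MAP1LC3B may be shared with the near-identical copy MAP1LC3B2, so its level is uncertain. The LC3 relatives GABARAPL2 and GABARAPL1 had ratios of 1.18 and 1.06. WIPI1, which reads phosphoinositides at the forming autophagosome, averaged 35.7 ± 6.93, 42.0 ± 8.15 and 40.01 ± 6.572 CPM, a ratio of 1.18 (0.985 to 1.40, adjusted p = 0.570).

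The lowest both-dose estimates among the autophagy genes were those of BECN1, ULK1 and UVRAG. BECN1, part of the lipid kinase complex that starts the autophagosome, had a ratio of 1.03 (0.897 to 1.18). ULK1, the initiating kinase, had 0.895 (0.767 to 1.04), and UVRAG, a partner of BECN1, had 0.879 (0.726 to 1.06). None of these 3 passed.

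**Figure D4:**
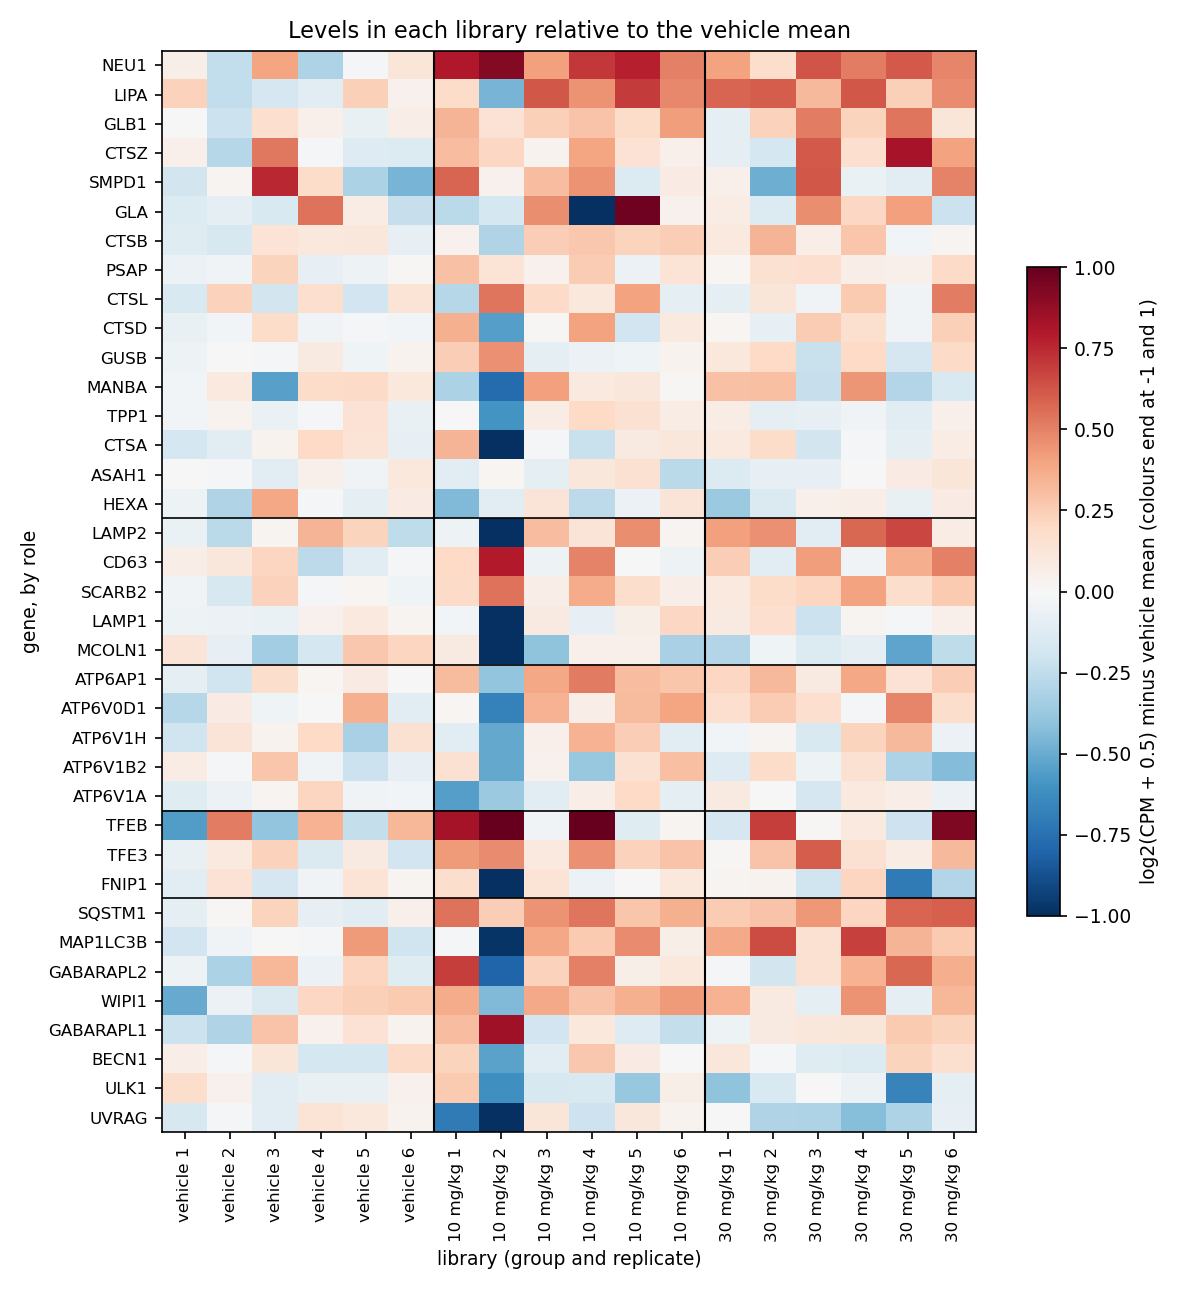
Colour shows log2(CPM + 0.5) of each gene in each library minus the vehicle mean; columns are libraries by group and replicate, and genes are grouped by role. NEU1 and SQSTM1 are red across the 10 mg/kg columns. In 10 mg/kg replicate 2, genes such as LAMP1, MCOLN1, CTSA, FNIP1 and LAMP2 depart from the rest of the group in blue.

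The genes with TCACGTGA in the windows printed above were not those with the largest estimates. Their both-dose ratios were 1.14 for ATP6V0D1, 0.998 for CTSA, 0.982 for LAMP1 and 0.863 for MCOLN1, a median log2 fold change of -0.01, and that of the 23 other genes with a window was 0.23. For all 4 genes 10 mg/kg replicate 2 was the lowest library of its group. Without it the ratios, in the same order, were 1.16, 1.03, 1.03 and 0.885, and the medians are given with that library only. Over all tested genes with a window, the medians were -0.01 with the word and 0.00 without it. NEU1 held the shorter CACGTG alone, in a stretch that differs from TCACGTGA only in the last letter. None of the 3 SQSTM1 windows held CACGTG. For that shorter word the median log2 fold change was 0.04 in the 8 genes with it and 0.23 in the 19 without. These medians describe 4 and 23 genes for the longer word, 8 and 19 for the shorter, and were not tested.

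Beyond the 37, 140 further genes of the lysosome, its sorting routes, its sensing machinery and autophagy were listed, and 130 were tested. With edgeR, 0 of 130 passed at 10 mg/kg, at 30 mg/kg or between the doses, and 4 (3.08%), 11 (8.46%) and 3 (2.31%) had an unadjusted p under 0.05, against 9.5%, 7.9% and 3.52% of all genes. Over both doses 1 of 130 passed (0.769%, against 0.931% of all genes). The median log2 fold change over both doses was 0.03, with 77 of the 130 above 0, against 49% of all genes. Apart from the share above 0, these shares, in either direction, lay near or below those of all genes. By direction they did not all do so. At 30 mg/kg 7.69% were higher at an unadjusted p under 0.05 and 0.769% lower, against 4.18% and 3.72% of all genes. At 10 mg/kg it was 2.31% and 0.769%, against 5.42% and 4.08%, and over both doses 6.15% and 1.54%, against 5.24% and 4.6%. The gene that passed was NPC1, which carries cholesterol out of lysosomes, at 36.4 to 43.7 CPM with vehicle (median 39.3), 46.3 to 58.6 CPM at 10 mg/kg (median 53.0) and 41.9 to 55.3 CPM at 30 mg/kg (median 52.3). Every 10 mg/kg library lay above every vehicle library, as for 1 of 130 (0.769%), near the 0.689% of all genes. NPC1 rose 1.29-fold over both doses (1.14 to 1.46, edgeR adjusted p = 0.0437), and that call ended without any of 12 of the 18 libraries (adjusted p up to 0.147) as well as with library totals alone (adjusted p = 0.0551), no filter (0.260), limma on log2(TPM + 1) (0.497) and the replicate block (0.164).

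OPTN, an autophagy receptor for mitochondria and bacteria, averaged 72.0 ± 3.83, 86.2 ± 7.60 and 89.6 ± 8.39 CPM. The 30 mg/kg libraries of OPTN (77.3 to 98.1 CPM) lay just above its vehicle libraries (67.1 to 77.1 CPM). That separation held for 3 of 130 genes (2.31%), against 1.25% of all genes. Its ratio over both doses was 1.23 (1.10 to 1.37, adjusted p = 0.0764), and it passed without 10 mg/kg replicate 2 (adjusted p = 0.0253). OSTM1, a subunit of a lysosomal chloride transporter that was singled out after its values were seen, averaged 12.03 ± 2.245, 16.2 ± 3.40 and 19.1 ± 3.56 CPM, a ratio of 1.49 (1.21 to 1.83, adjusted p = 0.0526, and 0.0207 without that library). NPC1, OPTN and OSTM1 were the 3 of 131 that passed over both doses without it (2.29%, near the 1.97% of all genes).

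RRAGA, a Rag GTPase that signals amino acids at the lysosome, had a both-dose ratio of 1.23 (adjusted p = 0.304). The ratios were 1.24 for the pump subunit ATP6V1D, 1.19 for the protease gene LGMN and 1.11 for IGF2R, the receptor that sorts hydrolases to lysosomes. None of these 4 passed.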

How the data were processed

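RNA was sequenced from 18 HCT116 PTDSS2-knockout tumours, 6 per group. Per the labels' protocols, libraries were made from 5 ng of total RNA with a stranded kit for low input. STAR 2.4.2a, hg19 and mm10 are listed in the submitters' processing notes with no role. Which quantifier and annotation were used, whether counting used strand, and how human and mouse reads were separated is not given in the sources used here. Per the file headers, the deposited values are expected counts (estimated reads per gene, not scaled) and TPM (scaled for length and depth by the authors) for 25343 genes by Entrez identifier. A symbol was found for all but 97 genes (25220 by identifier, 26 through a transcript accession).

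Expected counts were rounded, filtered with filterByExpr on the 3 groups, scaled by TMM and fitted over all 18 libraries in edgeR 4.0.16 (R 4.3.3, robust quasi-likelihood). The procedure was run on counts simulated from the mean levels and fitted spread of these data. That simulation did not include the departure of 10 mg/kg replicate 2 from the other libraries. P-values were adjusted over all genes tested (Benjamini-Hochberg, threshold 0.05). Intervals are 95% model intervals. No 2 libraries were identical, and the lowest chi-square per gene among 45 within-group pairs was 2.46. Alternatives were DESeq2 1.42.0 size factors and test, library totals alone, no filter, limma 3.58.1 on log2(TPM + 1), a replicate block, and each library left out. Without 10 mg/kg replicate 2, 14145 genes were tested. The 37 genes and the further lists were chosen with earlier results of these data known. Named with full values were genes that passed, the 3 per role with the smallest p over both doses, and TFEB, TFE3, LAMP1, CTSD and SQSTM1. Other genes of the pathway were named if they passed, and otherwise 1 per role with the smallest p. Promoter windows came from RefSeq (GRCh38.p14). Coordinates are given for these windows only, in that build, and none for the counted gene models.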

Additional observations from a re-analysis of the deposited data

Results flagged for a closer look

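In 12 of 111 groups of 6 libraries (37 genes in 3 groups), 1 library lay far from the rest, its gap to the nearest library being more than 0.625 of the whole range. Chance gives about 1 such group in 20. In 6 of the 12 the library was 10 mg/kg replicate 2, the shallowest, and it was low each time: LAMP1 at 42.8 CPM (others 147.6 to 180.1), FNIP1 at 17.1 CPM (41.1 to 48.4), MCOLN1 at 2.14 CPM (11.1 to 15.8), ATP6AP1 at 38.5 CPM (61.7 to 73.2), WIPI1 at 25.7 CPM (42.8 to 47.4) and TPP1 at 36.4 CPM (55.1 to 63.7). Among the vehicle libraries, replicate 3 was high for PSAP at 519.7 CPM (others 420.3 to 450.1), for CTSD at 175.2 CPM (146.2 to 152.7) and for CTSZ at 111.9 CPM (63.5 to 80.4), and low for MANBA at 30.1 CPM (43.2 to 50.3). Vehicle replicate 5 was high for MAP1LC3B at 52.0 CPM (33.5 to 38.6), and vehicle replicate 4 for GLA at 14.4 CPM (8.25 to 10.3). None of the 12 was in the 30 mg/kg group, and NEU1, SQSTM1 and LIPA were not among them.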

How the results depend on the processing

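Of the 37 genes, 1 passed at 10 mg/kg, 0 at 30 mg/kg and 2 over both doses. At 10 mg/kg the count was 2 with library totals alone and with DESeq2, and 0 with no filter, with limma on log2(TPM + 1) and with the replicate block. At 30 mg/kg DESeq2 gave 3. Over both doses DESeq2 gave 4, no filter 1, limma 0 and the replicate block 1. Leaving out 1 library at a time gave 0 to 2 at 10 mg/kg, 0 to 2 at 30 mg/kg and 0 to 4 over both doses. Over all genes, 66, 87 and 131 passed; no filter gave 32, 57 and 74, DESeq2 158, 179 and 278, and limma 12, 23 and 38. The replicate block gave 24 at 10 mg/kg and 75 over both doses, and leaving out 1 library gave 31 to 121, 61 to 182 and 74 to 279. Between the doses the count was 0 throughout. Replicate numbers did not pair the samples: 4 of 18 same-number pairs had correlated deviations (r over 0.1), and 4 of 18 libraries matched best with their own number. With the block, NEU1 at 10 mg/kg had an adjusted p of 0.0802. The cause of these shifts was not tested. Among the genes named with full values, small both-dose log2 fold changes turned sign for ATP6V1A (0.00374 without vehicle replicate 4, in a range of -0.0865 to 0.00374 with 1 library left out), LAMP1 (0.0390 without 10 mg/kg replicate 2 and 0.00113 without 30 mg/kg replicate 3, in a range of -0.0529 to 0.0390) and CTSD (-0.00197 with limma). Over all 37 genes, up to 4 turned sign with 1 library left out (vehicle replicate 3) and up to 5 under another setting (limma), and CTSA went from -0.00262 to 0.0401 without 10 mg/kg replicate 2. On log2(TPM + 1) the median of all genes at 10 mg/kg was -0.12 and that of the 37 was -0.01, with 11 of 37 differing in sign from the count fit. The scaling alternatives moved the median of all genes by under 0.1. The standard error of the both-dose log2 fold change ran from 0.08 to 0.29 (median 0.12), so small changes in the least abundant genes, TFEB and SMPD1, were not detectable. The limit was not confined to these. With edgeR and all libraries, both-dose ratios of 1.38 for LIPA and 1.21 for ATP6AP1 did not pass either.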

Other observations

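NEU1 and CTSA are partners in 1 complex, and their ratio within a library does not depend on how libraries are scaled. The ratio of NEU1 to CTSA was 0.251 to 0.465 with vehicle (median 0.372), 0.359 to 0.639 at 30 mg/kg (median 0.503) and, in 5 of the libraries at 10 mg/kg, 0.475 to 0.693 (median 0.499). It was 1.77 in 10 mg/kg replicate 2. All libraries at 10 mg/kg lay above all vehicle libraries, while those at 30 mg/kg overlapped them. The ratio of NEU1 to GLB1 was 0.797 to 1.21 with vehicle, 1.10 to 1.77 at 10 mg/kg and 0.991 to 1.46 at 30 mg/kg, and the groups overlapped. These ratios were computed after the values of the genes were seen and were not tested.

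Further subunits of the proton pump made up 15 of the 130 tested pathway genes outside the 37. None of the 15 passed with edgeR in any comparison. Over both doses 14 of the 15 had a log2 fold change above 0, against 49% of all genes tested, with a median of 0.11. The same count was 19 of 32 for the further hydrolases, 12 of 20 for the membrane proteins, 19 of 35 for autophagy, 8 of 19 for the regulators and 5 of 9 for sorting genes, and 3 of 5 for the pump genes among the 37. The pump was singled out after these counts were seen. Its exception was ATP6V1C1 at -0.16, and the highest was ATP6V0A4 at 0.89 (adjusted p = 0.498), whose vehicle mean was 1.40 CPM.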
